A study of Mus musculus with 15 samples.

Results

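The pore-forming and auxiliary subunits of the voltage-gated sodium and calcium channels were followed in tibialis anterior (TA) muscle and heart of DBA/2J-mdx mice, which lack dystrophin. The genes were those protein-coding genes whose symbols mark sodium channel alpha (Scn) and beta subunits or calcium channel alpha1, alpha2delta, beta and gamma subunits (Cacna, Cacnb, Cacng). This rule found 40 genes among the 56980 genes of the expression table. Each library came from 1 mouse. TA was taken at 5 months of age, after 2 months of treatment that began at 3 months, from 4 D + Q–treated males and from 4 vehicle-treated mice (2 males, 2 females). Hearts were taken at 16 months, after 4 months of treatment that began at 12 months, from 3 D + Q–treated mice (labelled 2 females, 1 male) and 4 vehicle-treated mice (2 males, 2 females). D + Q is dasatinib with quercetin, a drug pair given to remove senescent cells, and all groups were dosed 2 times per week. All 4 groups carried the mdx mutation, so no comparison with healthy muscle is possible, and tissue, age and length of treatment cannot be told apart in any comparison of TA with heart. By expression all 3 D + Q hearts were female while all 4 D + Q TA mice were male, so sex cannot be told apart from tissue there either.

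In a muscle fibre the sodium channel opens first and carries the action potential along the membrane. The depolarisation then reaches the L-type calcium channel. In skeletal muscle this channel serves mainly as a voltage sensor that pulls open the calcium release channel of the sarcoplasmic reticulum by contact, whereas in the heart it admits the calcium that triggers release. Each alpha subunit forms the pore, and the smaller beta, alpha2delta and gamma subunits set how much of it reaches the membrane and how it opens and closes. T-type calcium channels open at more negative voltages and are best known from pacemaker cells and from developing muscle.

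Values are TPM (transcript abundance scaled for transcript length and to a fixed total per library, so that levels can be set beside each other between genes). Differences were tested with limma on log2(TPM + 0.5), and a gene was called when its Benjamini-Hochberg adjusted p lay under 0.05 and its log2 fold change exceeded 0.5 in either direction. The 8 skeletal muscle fibre markers were all called higher in vehicle TA than in vehicle heart, with summed levels of 47506 to 60978 TPM over the 8 TA libraries and 1330.1 to 1783 TPM over the 7 hearts, and the 8 cardiomyocyte markers were all called lower. The sex read from Xist and 4 Y-linked genes matched the label in 14 of 15 libraries, the exception being D + Q heart replicate 3, labelled male. D + Q heart replicate 2 held a trace of fast skeletal transcripts (Atp2a1 at 31.5 TPM, against 0.141 to 1.51 TPM in the other 6 hearts). TPM keeps no depth, so precision comes only from the spread between mice, and in whole tissue fewer cells of a type and less RNA per cell cannot be told apart.

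Of the 40 genes, 23 reached 0.5 TPM in at least 3 TA libraries, 22 in at least 3 hearts and 19 in both, with 4 in TA only and 3 in heart only. The other 14 reached it in neither tissue, and none of their values exceeded 0.507 TPM. These 14 were the mainly neuronal sodium channels Scn1a, Scn8a, Scn9a and Scn11a, the neuronal calcium channels Cacna1b and Cacna1e, the retinal Cacna1f, the T-type Cacna1i, the beta subunit Cacnb4, and Cacng2, Cacng3, Cacng4, Cacng5 and Cacng8, of which Cacng2, Cacng3, Cacng4 and Cacng8 are known as partners of glutamate receptors in brain. The plot of levels by library shows genes that reached the minimum in a tissue.

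**Figure D1:**
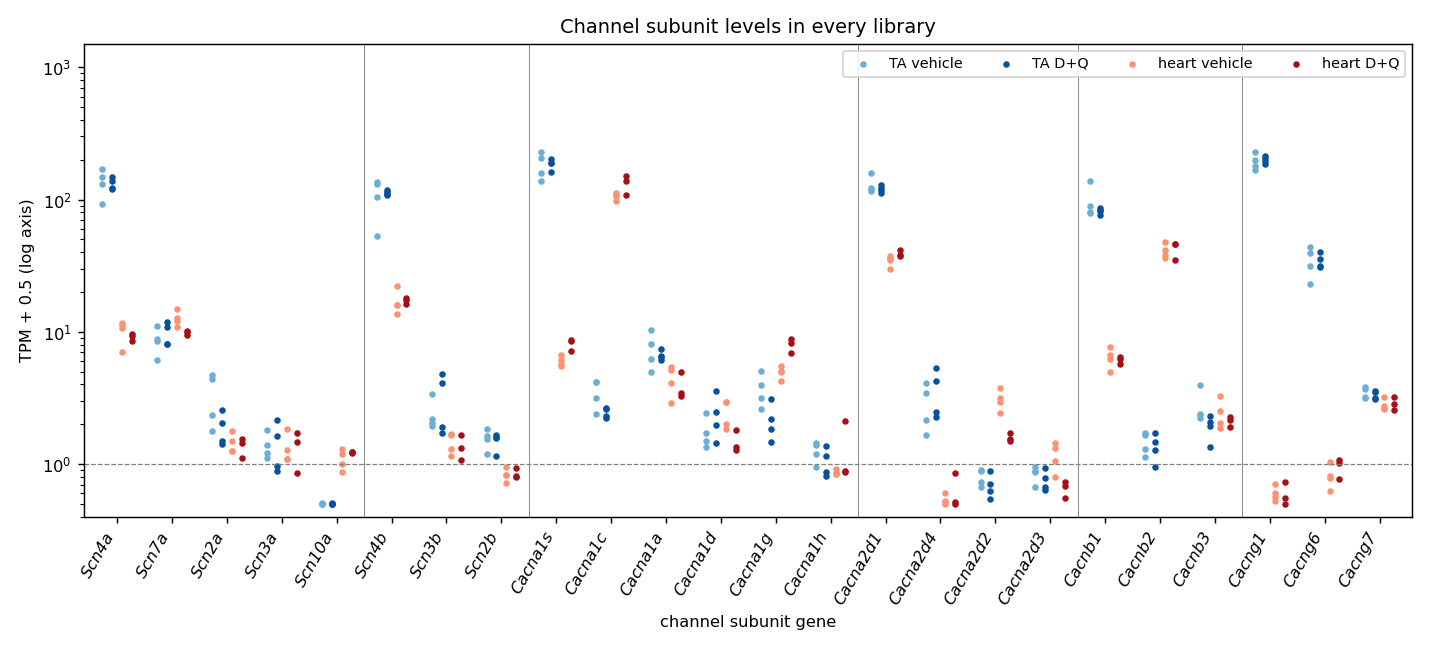
TPM + 0.5 on a log axis for subunit genes detected in TA or heart, with 1 point per library and the 4 groups in separate colours; vertical lines separate subunit classes and the dashed line lies at 0.5 TPM. Scn4a, Cacna1s, Cacnb1 and Cacng1 lie far higher in TA, and Cacna1c and Cacnb2 far higher in heart.

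The upstream sequence of 3 genes that separate the tissues is shown because their levels divide TA from heart in every library. Windows of 300 bases around the start sites are from RefSeq, build GRCm38.p6, which is not the build of the expression table. The table of windows holds 30 of the 40 genes. Capitals mark CAGCTG, an E-box of the kind that the MyoD family of muscle factors binds. The window of Cacna1s, the skeletal muscle L-type channel, is chr1:136052561-136052860 on the plus strand, that of Scn4a, the skeletal muscle sodium channel, is chr11:106349341-106349640 on the minus strand, and Cacnb2, the beta subunit of the heart L-type channel, has 2 windows on the plus strand, chr2:14604056-14604355 and chr2:14823842-14824141.
Cacna1s: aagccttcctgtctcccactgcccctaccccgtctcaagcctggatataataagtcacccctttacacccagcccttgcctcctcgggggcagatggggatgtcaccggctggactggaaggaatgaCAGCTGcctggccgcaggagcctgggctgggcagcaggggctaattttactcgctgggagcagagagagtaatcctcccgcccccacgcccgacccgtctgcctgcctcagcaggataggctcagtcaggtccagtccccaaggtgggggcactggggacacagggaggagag
Scn4a: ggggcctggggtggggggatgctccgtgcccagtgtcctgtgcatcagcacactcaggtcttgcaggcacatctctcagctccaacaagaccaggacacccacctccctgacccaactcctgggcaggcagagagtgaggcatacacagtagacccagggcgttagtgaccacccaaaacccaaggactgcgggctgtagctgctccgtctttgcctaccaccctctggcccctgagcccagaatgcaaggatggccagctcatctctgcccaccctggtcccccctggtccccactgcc
Cacnb2, first window: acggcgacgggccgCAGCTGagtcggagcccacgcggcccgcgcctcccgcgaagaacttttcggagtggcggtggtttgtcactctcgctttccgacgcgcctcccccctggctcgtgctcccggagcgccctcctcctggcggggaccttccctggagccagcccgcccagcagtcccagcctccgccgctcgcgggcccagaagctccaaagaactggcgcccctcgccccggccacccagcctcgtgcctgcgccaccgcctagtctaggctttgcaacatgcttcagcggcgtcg
Cacnb2, second window: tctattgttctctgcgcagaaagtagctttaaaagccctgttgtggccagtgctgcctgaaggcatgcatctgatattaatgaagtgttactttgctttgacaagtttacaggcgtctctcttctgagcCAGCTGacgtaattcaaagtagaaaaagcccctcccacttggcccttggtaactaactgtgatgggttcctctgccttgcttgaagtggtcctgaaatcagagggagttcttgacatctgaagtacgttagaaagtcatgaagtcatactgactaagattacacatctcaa
CAGCTG, which reads the same on both strands, stood once in the TA-high Cacna1s, once in each window of the heart-high Cacnb2 and not in that of Scn4a. It was in 16.3% of all 32851 windows of this length and in 13 of the 41 windows of the channel genes. The wider E-box CANNTG, which includes it, was in 72.3% of all windows and 28 of 41. GATAA, searched on both strands, was in 25.4% and 7 of 41, and a match to the MEF2 motif was in 3.19% and 0 of 41. These are letter matches, with no binding measured.

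Scn4a was the leading sodium channel alpha subunit of TA. It stood at 169, 147, 131 and 92.4 TPM in vehicle TA and at 137, 148, 121 and 123 TPM in D + Q TA. In heart it stood at 10.1, 6.49, 10.8 and 11.1 TPM (vehicle) and 8.83, 9.21 and 8.04 TPM (D + Q). Every TA library lay far above every heart library. In vehicle mice the mean was 135 ± 32.4 TPM in TA and 9.64 ± 2.14 TPM in heart (SD, n = 4 each), 14.0-fold higher in TA (log2 fold change 3.73 ± 0.21 SE, limma adjusted p = 1.27e-07). Scn4a made up 88.5% to 93.5% of the summed sodium channel alpha TPM in TA.

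Scn2a, Scn3a and Scn10a were low, while Scn7a made up 12.7% to 17.1% of the summed sodium channel alpha TPM in vehicle heart. Scn7a, an atypical family member that senses sodium concentration rather than voltage, was at 8.29, 7.98, 10.5 and 5.59 TPM in vehicle TA and 11.5, 14.4, 10.4 and 12.3 TPM in vehicle heart. These groups overlapped, and Scn7a was called lower in TA (log2 fold change -0.58 ± 0.18, limma adjusted p = 0.0237). The call was lost without vehicle TA replicate 4 (-0.42) or vehicle heart replicate 2 (-0.50) or 4 (-0.57). Its log2 fold change between the tissues of D + Q mice was -0.03 ± 0.17. Scn2a, a channel best known from neurons, was at 1.85, 3.87, 1.29 and 4.18 TPM in vehicle TA and 0.751, 1.27, 0.999 and 0.747 TPM in vehicle heart and was called higher in TA (1.09 ± 0.30). It was not called in D + Q mice (0.43 ± 0.25). Scn3a did not differ beyond the spread (0.07 ± 0.22). Scn10a, a channel of sensory neurons, was listed at 0 in 6 of the 8 TA libraries, with at most 0.0116 TPM, and at 0.375, 0.798, 0.685 and 0.493 TPM in vehicle hearts. It was 0.735, 0.709 and 0.733 TPM in D + Q hearts. Between the tissues it passed the filter on low values in D + Q mice only, where it was called lower in TA (-1.29 ± 0.14, limma adjusted p = 0.000182). It passed through the D + Q hearts alone, which fixed the direction, and it was not tested once any 1 of them was left out.

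Of the sodium channel beta subunits, single-pass membrane proteins that flank the alpha subunit, Scn4b, Scn2b and Scn3b were called higher in vehicle TA. Scn4b was at 136, 130.4, 105 and 52.5 TPM in vehicle TA and 15.4, 13.1, 21.6 and 15.4 TPM in vehicle heart, a 6.46-fold difference (2.59 ± 0.27). Its tissues did not overlap. Scn2b and Scn3b were low, with means of 1.05 and 1.90 TPM in vehicle TA and 0.331 and 0.954 TPM in vehicle heart (log2 fold changes 0.89 ± 0.18 and 0.70 ± 0.22). Scn2b passed the filter through TA alone, with vehicle and with D + Q, which fixed its direction. In D + Q mice Scn4b and Scn2b were again called higher in TA, with log2 fold changes of 2.71 ± 0.08 and 0.81 ± 0.19. Scn3b was not (1.09 ± 0.40, limma adjusted p = 0.0564), but was called without D + Q TA replicate 2 (1.28) or 3 (1.33). In vehicle mice the Scn3b call was lost without vehicle TA replicate 3 or vehicle heart replicate 1 or 4 (0.52, 0.60 and 0.65).

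**Figure D2:**
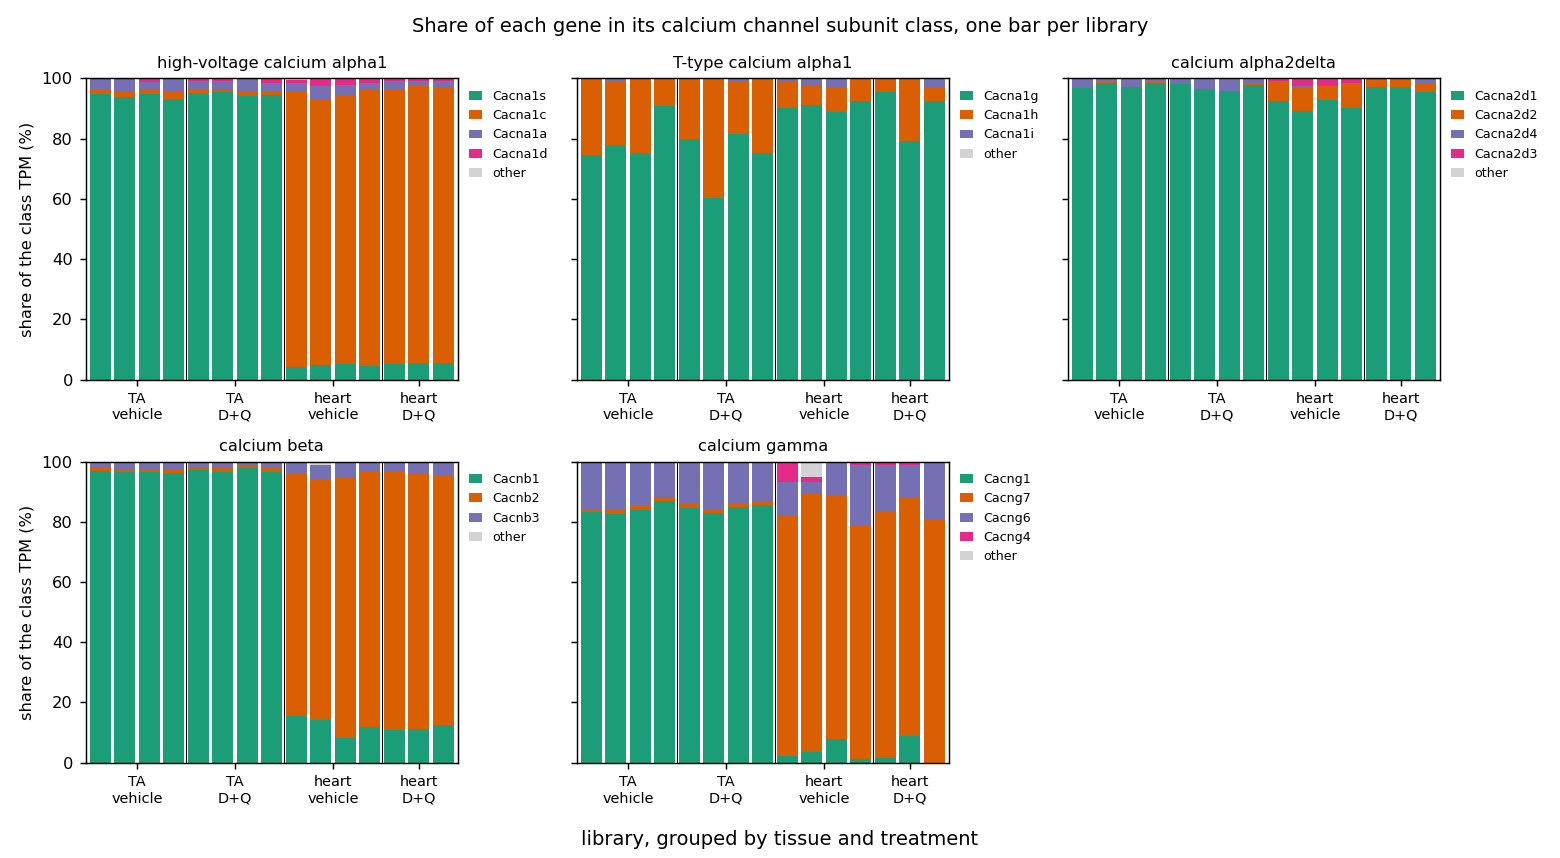
Share of each gene in the summed TPM of its calcium channel subunit class (percent, 1 bar per library, libraries grouped by tissue and treatment). Cacna1s, Cacnb1 and Cacng1 fill most of their classes in TA, Cacna1c, Cacnb2 and Cacng7 in heart, and Cacna2d1 and Cacna1g in both.

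The L-type calcium channel pore subunits divided in the same way. Cacna1s was at 205, 229, 158 and 137 TPM in vehicle TA and at 4.98, 5.19, 6.17 and 5.58 TPM in vehicle heart, 33.3-fold higher in TA (log2 fold change 4.91 ± 0.16, limma adjusted p = 1.83e-09). Cacna1c was at 2.67, 3.66, 1.91 and 3.67 TPM in vehicle TA and 106, 96.7, 109.9 and 112 TPM in vehicle heart, 35.7-fold higher in heart (-4.98 ± 0.17, limma adjusted p = 2.91e-09). In D + Q mice the ratios of means were 24.2-fold for Cacna1s and 67.5-fold for Cacna1c. Cacna1s made up 93.0% to 95.4% of high-voltage alpha1 TPM in TA and 4.27% to 5.62% in heart, and Cacna1c 88.3% to 92.1% in heart. Ryr1, the skeletal calcium release channel that Cacna1s contacts, stood at 0.0299 to 0.633 TPM in the 7 hearts, and Cacng1, the gamma subunit of the skeletal channel, at 0 to 0.235 TPM. Cacna1s was at 4.98 to 8.20 TPM there, with 8.03 TPM in the heart that held the trace of skeletal transcripts, whose part in these levels was not tested.

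The neuronal, pacemaker and T-type pore subunits were low in both tissues. Cacna1a, the P/Q-type channel of nerve terminals, was at 7.53, 9.85, 4.49 and 5.72 TPM in vehicle TA and 3.59, 4.88, 4.66 and 2.42 TPM in vehicle heart. Its groups overlapped and it was called higher in TA (log2 fold change 0.74 ± 0.26, limma adjusted p = 0.0364), a call that was lost without vehicle TA replicate 1 or 2 or vehicle heart replicate 1 or 4 (0.56 to 0.72). It was called in D + Q mice with 0.79 ± 0.18. Cacna1d, an L-type channel of pacemaker and atrial cells, was not called in vehicle mice (-0.48 ± 0.24) or D + Q mice (0.61 ± 0.31), though it was without vehicle TA replicate 3 (-0.65) or D + Q TA replicate 3 (0.82). The T-type Cacna1g was at 2.66, 3.43, 2.10 and 4.53 TPM in vehicle TA and 3.77, 5.00, 4.59 and 4.48 TPM in vehicle heart, with overlapping groups and no call (-0.47 ± 0.21), except without vehicle TA replicate 4 (-0.63). In D + Q mice it was at 2.59, 1.35, 1.70 and 0.961 TPM in TA and 8.28, 6.37 and 7.76 TPM in heart, without overlap, and was called lower in TA (-1.94 ± 0.25, limma adjusted p = 0.000445). Cacna1h, another T-type channel, lay under 1 TPM except in 1 library, the D + Q heart with skeletal transcripts (1.63 TPM, against 0.339 to 0.426 TPM in the other 6 hearts). It was called higher in vehicle TA at 0.51 ± 0.17, close to the threshold, and the call was lost without any 1 of the 4 vehicle hearts (0.49 to 0.54) and under 4 of the 7 other settings that could test it. It passed the filter there through TA alone.

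The auxiliary calcium channel subunits divided like the pores. Cacnb1, which anchors the skeletal channel, was at 89.7, 138, 79.2 and 80.0 TPM in vehicle TA and 7.24, 6.21, 4.51 and 5.72 TPM in vehicle heart (16.3-fold, log2 fold change 3.90 ± 0.19). Cacnb2 was at 0.800, 1.17, 0.623 and 1.22 TPM in vehicle TA and 37.4, 35.5, 47.1 and 40.9 TPM in vehicle heart (42.2-fold higher in heart, -4.82 ± 0.17, limma adjusted p = 2.99e-09). Cacnb3, the beta subunit of many non-muscle cells, was near 2 TPM in both tissues (0.16 ± 0.24). Cacng1 was at 230.3, 199, 177 and 168 TPM in vehicle TA against 0.0602, 0.109, 0.212 and 0.0297 TPM in vehicle heart. This was the largest difference of the 25 genes tested (8.33 ± 0.15 on a scale that understates it, limma adjusted p = 1.50e-11). Cacng6 was at 43.2, 38.7, 30.8 and 22.5 TPM against 0.308, 0.128, 0.282 and 0.540 TPM (5.38 ± 0.22). Cacng1 and Cacng6 passed the filter through TA alone, which fixed their direction. Cacng7 was the main gamma subunit in heart by share (78.0% to 85.7%), yet at 2.12 to 2.72 TPM there and 2.65 to 3.32 TPM in vehicle TA it was not called (0.30 ± 0.15).

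The alpha2delta subunits, extracellular proteins that raise channel number at the surface, were led by the same gene in both tissues. The T-type pores were too, with Cacna1g at 60.3% to 90.7% of their class in TA and 79.3% to 95.6% in heart. Cacna2d1 was at 123, 159, 115 and 121 TPM in vehicle TA and 34.5, 29.2, 36.7 and 35.6 TPM in vehicle heart (3.80-fold, log2 fold change 1.91 ± 0.13). It made up 95.7% to 98.6% of the class in TA and 89.1% to 97.3% in heart. Cacna2d4 was detected in TA alone, at 3.61, 1.65, 2.93 and 1.16 TPM, against 0 to 0.109 TPM in vehicle hearts (2.31 ± 0.27). Cacna2d2 was higher in heart, at 2.46, 2.65, 1.94 and 3.27 TPM against 0.230, 0.401, 0.176 and 0.391 TPM in TA (-1.94 ± 0.19). Cacna2d4 passed the filter through TA alone and Cacna2d2 through heart alone, which fixed their direction. Cacna2d3 stayed under 1 TPM everywhere and was not called (-0.43 ± 0.22), except without vehicle heart replicate 1 (-0.59).

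Of the 25 genes tested between vehicle TA and vehicle heart, 14 were called higher in TA, against 24.0% of all 16893 genes tested, and 5 lower, against 14.7%. The median log2 fold change of the 25 was 0.70, beside 0.16 over all genes. In D + Q mice 11 of 25 were called higher (21.2% of 16381 genes) and 6 lower (15.6%), with a median of 0.61 beside 0.10. In each comparison 7 genes had passed the filter only through the tissue in which they were high, which fixed their direction. They make up 6 of the calls in vehicle mice and 7 in D + Q mice. In vehicle mice they were Scn2b, Cacng1, Cacng6, Cacna2d4 and Cacna1h through TA and Cacna2d2 and Cacna2d3 through heart. With D + Q, Scn2b, Cacng1, Cacng6, Cacna2d4, Cacna2d2 and Scn10a were among them. The counts of calls are therefore no support for a difference of the family from other genes. Scaling by median-of-ratios moved the median of all genes by -0.16 in vehicle mice and turned the split over all genes from 62.0% to 47.1% higher. The channel genes then split 13 higher and 8 lower, with Cacna1d (-0.61), Cacna1g (-0.63) and Scn10a (-1.14) joining the lower calls and Cacna1h (0.41) losing its call. With no filter on low values the calls of Cacna1a, Cacna1h, Scn3b and Scn7a in vehicle mice were lost, and Cacna1e (-0.53), under 0.5 TPM in every library, and Scn10a (-1.10) were called lower.

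Many of these genes sit beside a relative on the chromosome, and some neighbours differed widely in level (GENCODE M39, GRCm39). Others were close, such as Scn3a and Scn2a in vehicle heart (0.823 and 0.942 TPM) or, near 0 in vehicle TA, Cacng4 and Cacng5 (0.0470 and 0.0204 TPM). Cacng1 and Cacng4 lie 15.8 kb apart on chromosome 11 with no coding gene between them, at 194 and 0.0470 TPM in vehicle TA. Cacng8 and Cacng6 lie 6.0 kb apart on chromosome 7, at 0.00781 and 33.8 TPM. Scn2b and Scn4b lie 8.2 kb apart on chromosome 9, at 1.05 and 106 TPM, though both were called higher in TA. Cacna1c and Cacna2d4 lie 39.6 kb apart on chromosome 6, the first at 106 TPM in vehicle heart, where the second was at 0.0388 TPM. On chromosome 2 Scn7a was at 8.09 TPM in vehicle TA, whereas Scn9a, 38.5 kb away, and Scn1a beyond it were at or under 0.00501 TPM.

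The partners of the channels were counted from lists of 14 sodium and 28 calcium channel partners. Between vehicle TA and heart, 6 of 14 sodium channel partners were called higher in TA and 3 lower (median log2 fold change 0.10). Of 27 calcium channel partners tested, 17 were called higher and 6 lower (median 0.85). Over all genes 24.0% were called higher and 14.7% lower, with a median of 0.16. The lists were chosen with earlier results of these data known, so these counts are no support for a difference of the partners from other genes. The clearest calls higher in TA were Ryr1 (9.47 ± 0.14), Jsrp1, a binding protein of the skeletal junction (7.51 ± 0.13), the calcium store protein Casq1 (7.77 ± 0.15), the fast calcium pump Atp2a1 (13.23 ± 0.29) and Jph1, which ties the store to the membrane (3.96 ± 0.10). Those lower in TA were the heart release channel Ryr2 (-8.76 ± 0.13), the pump Atp2a2 (-5.54 ± 0.13), the desmosomal Pkp2 (-3.95 ± 0.13), the sodium-calcium exchanger Slc8a1 (-3.86 ± 0.12) and Fgf12, a sodium channel modulator (-3.61 ± 0.40). In D + Q mice 5 of 13 and 15 of 25 were called higher and 3 and 6 lower, with medians of 0.17 and 0.66. Over all genes 21.2% were called higher there and 15.6% lower, with a median of 0.10. The leading calls higher were Casq1, Jsrp1, Ryr1, the chloride channel Clcn1 and Camk2b. Those lower were Ryr2, Slc8a1, Atp2a2, Pkp2 and Casq2.

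D + Q was compared with vehicle within TA in a model that held 1 surrogate variable. None of the 23 channel genes tested was called in either direction, as was the case for all genes (0% of 16298 higher, 0% lower). The study used DESeq2 on counts at the same thresholds and reported genes changed in both directions, in TA and in heart. The absence of calls in TA was met with limma on TPM and does not show that no gene changed. Why the results differ from those of the study was not tested. Only Cacna1g had an unadjusted p under 0.05 in limma, where 2.99% of all genes had one. For no channel gene were the groups free of overlap, against 0.264% of all genes with D + Q above and 1.25% below. The major subunits had small differences, with log2 fold changes of -0.03 ± 0.18 for Scn4a, 0.13 ± 0.27 for Scn4b, 0.02 ± 0.17 for Cacna1s, -0.20 ± 0.18 for Cacnb1, 0.08 ± 0.13 for Cacng1 and -0.10 ± 0.13 for Cacna2d1. Cacna1g was at 2.66, 3.43, 2.10 and 4.53 TPM with vehicle and 2.59, 1.35, 1.70 and 0.961 TPM with D + Q. It was lower in 3 of 4 D + Q mice than in every vehicle mouse, and its log2 fold change was -0.78 ± 0.29 (limma unadjusted p = 0.0229, adjusted p = 0.999). Scn2a (-0.62 ± 0.33), Cacnb3 (-0.55 ± 0.26), Cacna1c (-0.43 ± 0.22) and Cacna2d4 (0.44 ± 0.35) had the next largest values, all with adjusted p = 0.999. Vehicle TA had 2 females and D + Q TA none, and with labelled sex in place of the surrogate variable Cacna1g was at -0.47 ± 0.31, Scn2a at -0.16 ± 0.29, Cacnb3 at -0.34 ± 0.31, Cacna1c at -0.17 ± 0.22 and Cacna2d4, with its sign turned, at -0.16 ± 0.36. Scn2a was at -0.06 without D + Q TA replicate 3.

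A few low subunits in TA were highest in the same 3 mice, 2 of them D + Q–treated. Scn7a was at 8.29, 7.98, 10.5 and 5.59 TPM with vehicle and 10.5, 7.55, 7.59 and 11.4 TPM with D + Q, so D + Q replicates 1 and 4 and vehicle replicate 3 were the highest. Scn3b was highest in the same 3 mice (3.58, 4.32 and 2.91 TPM, against 1.21 to 1.70 TPM in the other 5), and so was Cacna1d (1.97, 3.08 and 1.95 TPM, against 0.854 to 1.47 TPM). Among genes outside the channel families, looked at after these levels were seen, Rrad, an inhibitor of L-type channels, was at 354, 159 and 241 TPM in these 3 mice and at 6.32 to 31.5 TPM in the other 5. Runx1, known to rise on denervation, was at 62.3, 37.3 and 38.2 TPM against 15.6 to 23.5 TPM, and Myod1, a regulator of muscle regeneration, at 52.1, 83.8 and 58.6 TPM against 25.3 to 43.0 TPM. The same mice had the highest surrogate variable (0.70, 0.23 and 0.30, against at most -0.13). Runx1 and Myod1 belong to the 9 markers of regenerating or denervated fibres and were picked from them after the levels were seen. The summed level of all 9 did not keep this order, with 250.2, 234 and 178 TPM in these mice and 144 to 226 TPM in the others. Vehicle replicates 2 and 4, at 188 and 226 TPM, lay above vehicle replicate 3 in this sum. Its part in the levels was not tested.

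**Figure D3:**
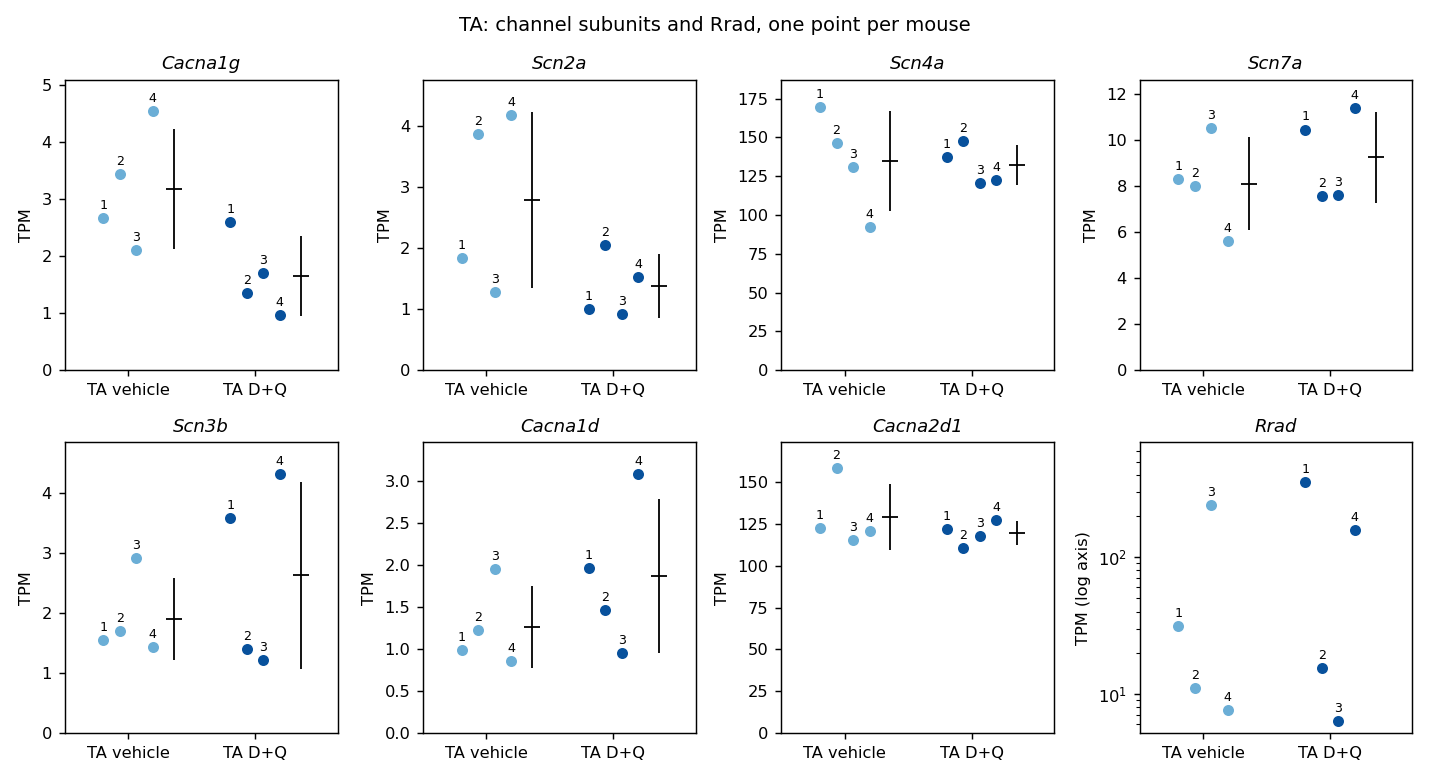
TPM of 7 channel subunits and of Rrad in TA, with 1 numbered point per mouse, the mean and SD (bars) in all panels but that of Rrad, which has a log axis. D + Q mice 1 and 4 and vehicle mouse 3 are the highest for Scn7a, Scn3b, Cacna1d and Rrad, and the groups overlap in every panel.

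In the vehicle TA group, replicate 4 had the lowest value of several major subunits, Scn4a (92.4 TPM), Scn4b (52.5 TPM), Cacna1s (137 TPM), Cacng1 (168 TPM) and Cacng6 (22.5 TPM). Cacnb1 and Cacna2d1 were not lowest there (80.0 and 121 TPM, against 79.2 and 115 TPM in replicate 3). Vehicle replicate 4 also had the lowest summed skeletal fibre markers of the 8 (47506 TPM, against 50778 to 60978 TPM). Its embryonic myosin Myh3 was the highest (42.9 TPM, against 4.42 to 28.1 TPM). Myh3 is 1 of the 9 markers of regenerating or denervated fibres. Their sum in this mouse (226 TPM) lay below that in D + Q replicates 1 and 4 (250.2 and 234 TPM). This mouse was labelled female, like vehicle replicate 2. Its 10 highest genes took 43.3% of all TPM, against 36.2% to 42.1% in the other TA libraries. The part of these markers, of this share or of sex in the channel levels of this mouse was not tested.

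D + Q was compared with vehicle within heart in a model that held labelled sex. None of the 22 channel genes tested was called, where 0.105% of all 16132 genes were called higher and 0.211% lower. An unadjusted limma p under 0.05 was reached by 8 of the 22, against 17.6% of all genes. Among the 22 genes, 4 had every D + Q heart above every vehicle heart (9.63% of all genes did) and 4 had every D + Q heart below (5.57%). Those above included Cacna1g, Cacna1s and Cacna2d1, and the 4 below were Cacna2d2, Cacna1d, Cacna2d3 and Scn7a. The median log2 fold change of the 22 was -0.06, beside -0.00248 over all genes.

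**Figure D4:**
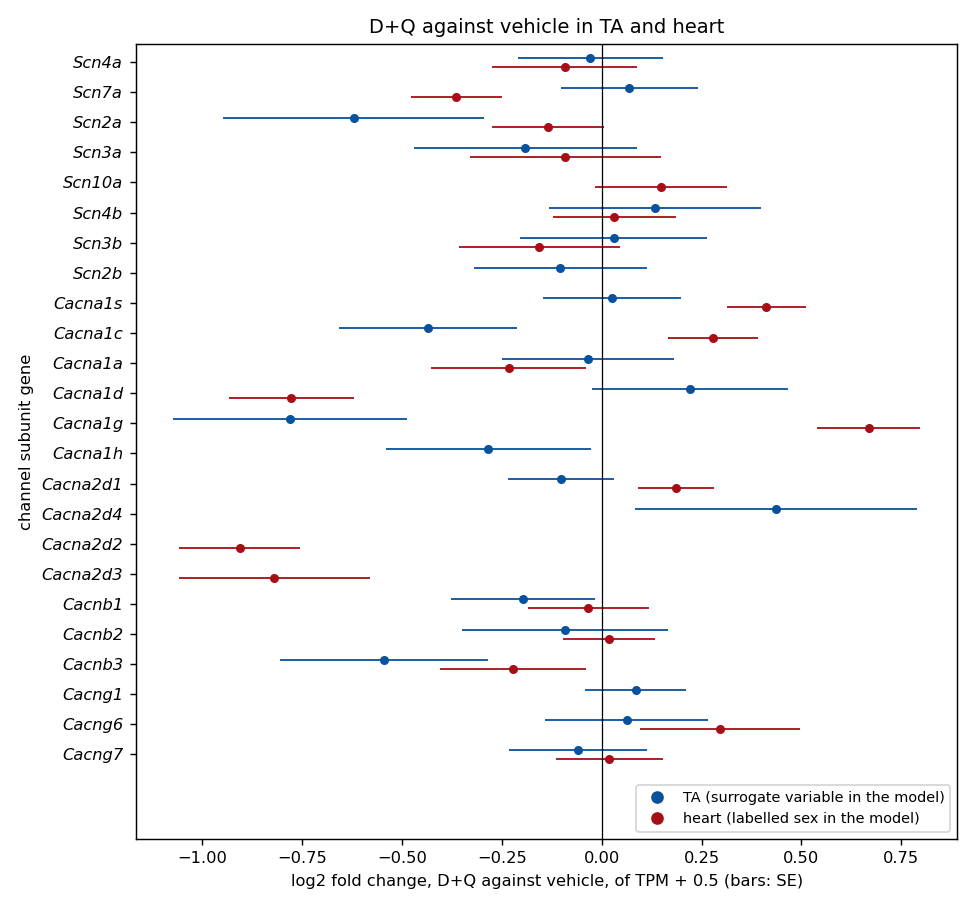
Log2 fold change of TPM + 0.5 for D + Q against vehicle in TA and in heart, with 1 point per tissue in which a gene shown was tested and bars of 1 SE. Cacna1g lies at -0.78 in TA and 0.67 in heart, and no point passed the test in either tissue.

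Pore subunits above in D + Q hearts were led by the T-type channel. Cacna1g was at 3.77, 5.00, 4.59 and 4.48 TPM with vehicle and 8.28, 6.37 and 7.76 TPM with D + Q, with means of 4.46 ± 0.514 (SD, n = 4) and 7.47 ± 0.986 TPM (n = 3). Every D + Q heart lay above every vehicle heart, and the log2 fold change was 0.67 ± 0.13 (limma adjusted p = 0.0942). Cacna1s was at 4.98, 5.19, 6.17 and 5.58 TPM with vehicle and 8.20, 8.03 and 6.63 TPM with D + Q (0.41 ± 0.10, adjusted p = 0.117). Of 5 skeletal fibre markers tested in heart, 3 lay above in every D + Q heart, against 9.63% of all genes. An unadjusted limma p under 0.05 was reached by 2 of the 5, against 17.6% of all genes, and none was called. Their median log2 fold change was 1.27. Their summed level, mostly Ckm and Acta1, was 1561 to 1618 TPM with D + Q and 1330.1 to 1783 TPM with vehicle. Their part in the level of Cacna1s was not tested. Cacna1c was at 150.2, 138 and 108 TPM with D + Q against 96.7 to 112 TPM, with D + Q replicate 3 inside the vehicle range (0.28 ± 0.11, limma adjusted p = 0.261). Cacna2d1 was at 41.2, 37.5 and 36.9 TPM against 29.2 to 36.7 TPM (0.19 ± 0.09).

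The genes below in D + Q hearts were the auxiliary Cacna2d2 and Cacna2d3, the low pore subunit Cacna1d and Scn7a. Cacna2d2 was at 2.46, 2.65, 1.94 and 3.27 TPM with vehicle and 1.05, 0.994 and 1.20 TPM with D + Q (log2 fold change -0.91 ± 0.15, limma adjusted p = 0.0812), and this was the smallest adjusted p of the 22 genes. Cacna1d was at 1.36, 2.45, 2.42 and 1.51 TPM with vehicle and 1.32, 0.856 and 0.786 TPM with D + Q, with the nearest hearts almost level (-0.78 ± 0.16, adjusted p = 0.0980). Cacna2d3 was at 0.300, 0.818, 0.941 and 0.548 TPM against 0.184, 0.0569 and 0.239 TPM (-0.82 ± 0.24, adjusted p = 0.155), and it had passed the filter through the vehicle hearts alone. Scn7a was at 11.5, 14.4, 10.4 and 12.3 TPM against 9.39, 9.66 and 8.92 TPM (-0.36 ± 0.11, adjusted p = 0.172). The other 13 genes overlapped between the groups with log2 fold changes from -0.23 (Cacna1a) to 0.30 (Cacng6), among them Scn4a (-0.09 ± 0.18), Scn4b (0.03 ± 0.15), Cacnb1 (-0.03 ± 0.15) and Cacnb2 (0.02 ± 0.12). With sex read from expression in place of the label, no channel gene was called, Cacna1g was at 0.58 ± 0.15, Cacna2d2 at -0.81 ± 0.19, Cacna1d at -0.999 ± 0.196, Cacnb3 at -0.44 ± 0.18 and Cacna1a at -0.46 ± 0.22, and the calls over all genes were 3 higher and 22 lower in place of 17 and 34.

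The vehicle hearts also held more atrial transcripts. Of 8 atrial markers, 4 were called lower with D + Q, against 0.211% of all genes. Every D + Q heart lay below every vehicle heart for 5 of the 8, against 5.57% of all genes. None of the 8 was at 0 in any heart, and their summed level was 900.0 to 4340 TPM with vehicle and 420.4 to 465 TPM with D + Q. Myl7, the atrial myosin light chain, was at 94.1, 730.1, 541 and 283 TPM with vehicle and 3.99, 4.54 and 3.46 TPM with D + Q. Cacna1d and Cacna2d3 were highest in vehicle hearts 2 and 3, those with the most Myl7, and lowest in vehicle heart 1, that with the least. This was not particular to them. Cacna1g (3.77, 5.00, 4.59 and 4.48 TPM), Scn10a and Scn3b were also highest in vehicle hearts 2 and 3 and lowest in vehicle heart 1. Cacna1g was nevertheless higher in the D + Q hearts, where Myl7 was lowest. Cacna2d2 was highest in vehicle heart 4. With an atrial score in place of sex in the model, Cacna1d turned to 0.55 ± 0.57 and Cacna2d3 to 0.53 ± 0.65, while Cacna2d2 was at -1.17 ± 0.55, Cacna1g at 1.19 ± 0.38 and Cacna1s at 0.87 ± 0.35 (limma adjusted p = 0.745 for these 3). This fit moved the median of all genes from -0.00248 to 0.30 and left no gene called. Single values are therefore to be read beside this general move. Not every gene shared it, since Cacna2d2 went from -0.91 to -1.17. The summed atrial levels did not overlap between the groups, so this fit cannot tell atrial content from D + Q. The SE of Cacna1d rose from 0.16 to 0.57, and its turned sign decides nothing. In the D + Q hearts 5 of 8 cardiomyocyte markers lay above every vehicle heart, against 9.63% of all genes. The summed levels of the 8 were 21202 to 22457 TPM against 17556 to 18958 TPM. The 10 highest genes took 45.4% to 47.3% of all TPM there, against 50.1% to 50.7% with vehicle. The part of these shifts in the higher levels of Cacna1g and Cacna1s was not tested.

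**Figure D5:**
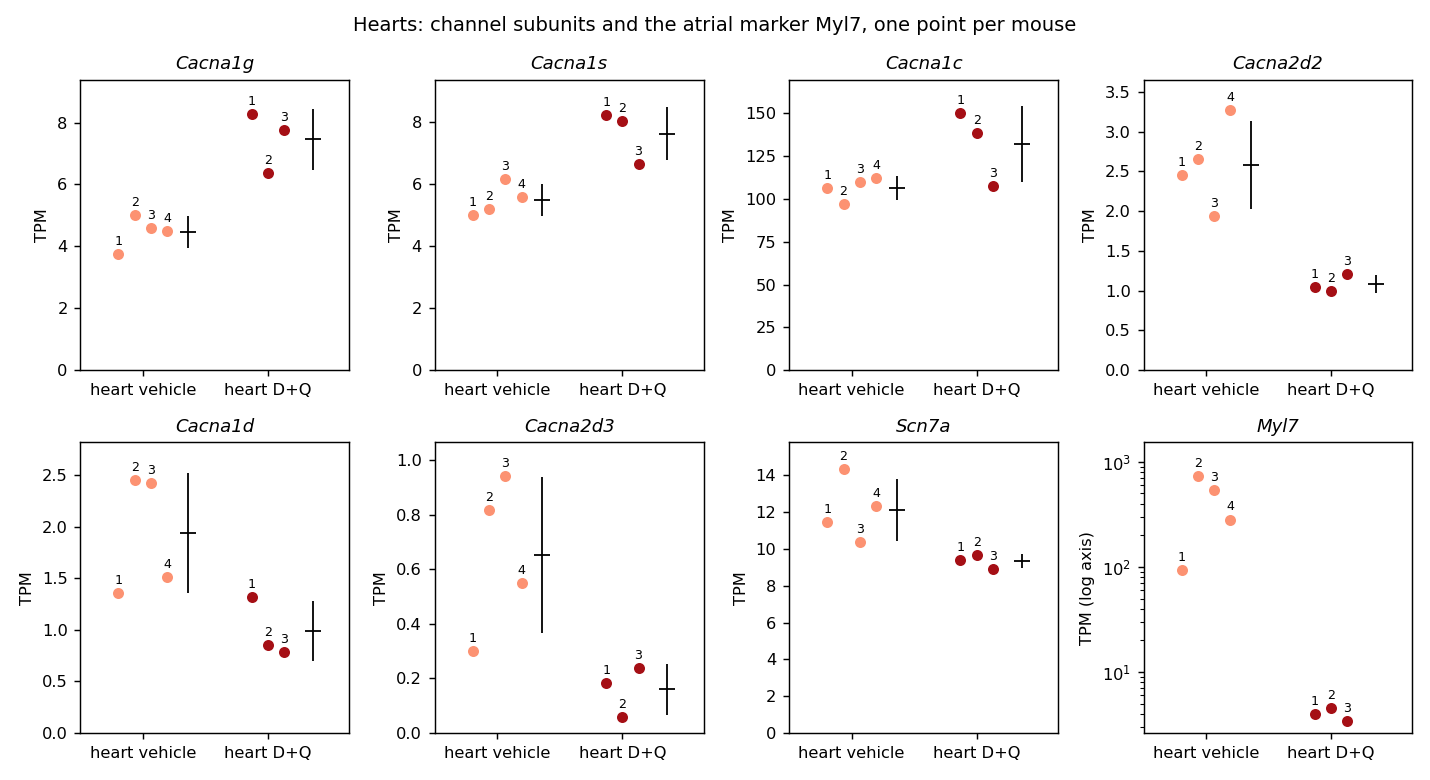
TPM of 7 channel subunits and of the atrial marker Myl7 in hearts, with 1 numbered point per mouse, the mean and SD (bars) in all panels but that of Myl7, which has a log axis. The 3 D + Q hearts lie above all 4 vehicle hearts for Cacna1g and Cacna1s and below them for Cacna2d2, Cacna1d, Cacna2d3, Scn7a and Myl7, and Cacna1c overlaps.

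The channel partners in heart gave 1 call, Ryr3, a minor calcium release channel (log2 fold change -1.47 ± 0.16, limma adjusted p = 0.0284). Over all genes 0.211% were called lower. Ryr3 was at 1.26, 2.51, 2.79 and 1.75 TPM with vehicle and 0.458, 0.618 and 0.328 TPM with D + Q. Like Myl7, it was highest in vehicle hearts 2 and 3 and lowest in vehicle heart 1. Its call was lost with no filter on low values, with the atrial score and without vehicle heart replicate 2, where no gene was called. Of 24 calcium channel partners tested, 9 lay above in every D + Q heart and 1 below, and of 14 sodium channel partners 6 and 1, against 9.63% and 5.57% of all genes, with medians of 0.15 and 0.17 beside -0.00248. In TA none of 25 and 12 partners tested was called, with medians of -0.03 and -0.06 beside -0.07 over all genes.

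The difference between the treatment effects of TA and heart was tested for the 19 genes that passed the filter in both tissues, and it shares all libraries with the 2 comparisons above. None was called, against 0.0201% of 14914 genes with a higher effect in TA and 0.00671% with a lower one, and 3 had an unadjusted limma p under 0.05, against 3.59% of all genes. Cacna1g had a difference of -1.28 ± 0.34 (limma adjusted p = 0.828) in this joint model with labelled sex. Its values of -0.78 in TA and 0.67 in heart are from the separate models above and need not subtract to it. Cacna1d had one of 1.21 ± 0.43 and Cacna1c of -0.57 ± 0.22 (adjusted p = 1.00 for both).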

How the data were processed

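Bulk RNA-seq libraries of TA and heart, 1 per mouse, were deposited as 1 table of TPM values per gene. Per the labels and the study's methods the authors trimmed reads with Trim Galore 0.6.10, quantified them with Salmon 1.10.3 on GRCm39 and summed transcripts to genes with tximport. The annotation release is not given in the sources used here. TPM are scaled within each library to a fixed total, so they keep no depth and allow no estimate of counting error.

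Genes were named from GENCODE M39. Members and gene lists were chosen with earlier results of these data known. Values were tested as log2(TPM + 0.5) with limma 3.58.1 in R 4.3.3 (trended variance), after a filter of at least 0.5 TPM in at least 3 libraries of the comparison, with Benjamini-Hochberg adjustment over all genes tested. Fold changes on this scale understate those of low genes. The TA comparison held 1 surrogate variable (5 rounds), the heart comparison labelled sex, the difference between tissues in treatment effect group means with labelled sex, and the tissue comparisons no covariate. The methods were tested on simulated data. Counts cover every member, some members are not reported here by name, and partner genes by at most 5 calls in each direction with the smallest adjusted p. Alternatives were other pseudocounts, filters, scaling and covariates, a replicate block and each library left out. Errors after ± are SD for TPM and SE for log2 fold changes.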

Additional observations from a re-analysis of the deposited data

Results flagged for a closer look

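In a check of 68 groups of 4 libraries, 2 held a library far from the other 3, where chance alone marks about 1 in 20. Both were vehicle TA replicate 2. Cacna2d1 was at 159 TPM there, with the nearest library at 123 TPM, a gap of 0.830 of the group's range, just past the critical value for 4 values. Cacnb3 was at 3.46 TPM, with the nearest library at 1.91 TPM and a gap of 0.887 of the range.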

How the results depend on the processing

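No channel gene was called for treatment under any setting tried, in TA, in heart or in the difference between them. Under median-of-ratios scaling 8 channel genes were called lower in vehicle TA than in vehicle heart, in place of 5. With the atrial score in place of sex, the heart treatment values of Cacna1d and Cacna2d3 turned to 0.55 ± 0.57 and 0.53 ± 0.65. That fit cannot tell atrial content from D + Q. Leaving out 1 library gave 11 to 14 genes higher and 4 to 6 lower in vehicle TA. Over all genes, no filter on low values left 0 calls for treatment in heart in place of 17 higher and 34 lower, and leaving out 1 heart gave 0 to 64 higher and 0 to 72 lower.

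Same-numbered mice did not deviate together, with a mean correlation of 0.000536 in heart and -0.114 in TA, so replicate numbers were not taken as pairs. With the replicate block 13 channel genes were higher and 5 lower in vehicle TA, and 10 and 6 in D + Q TA, where Scn2b lost its call (limma adjusted p = 0.0610). The block left 0 higher and 4 lower calls over all genes in heart.

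TPM give no depth, each group held 3 or 4 mice, and age cannot be told apart from tissue.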
